A study of Mus musculus with 8 samples.

Results

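The genes described here are 63 members of testis-named gene families, chosen by symbol among the 5736 genes of the table analysed. The symbols begin with Tex, Mage, Rhox, Spata, Spag, Tssk, Odf, Catsper, Akap, Cfap, Dnah, Tekt, Tsga or Tspyl, and 2 further rows were left out by the rule. The rule also asked for the germ granule families Tdrd, Tdrkh and Piwil and for Ropn and Dnaic; 0 genes of these 5 families were in the table, so they were not analysed here and the genes below represent flagellar and testis-named families, not germ granules. Cfap gave 13 members, Mage 8, Spag 7, Dnah 6, and the other 10 families between 1 and 5 each.

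mRNA abundance was measured by RNA-seq in 8 libraries from germ cells of Uchl1-eGfp mice, which express EGFP from the *Uchl1* promoter (a promoter also active in neurons) and had been outcrossed to CD-1. In the protocol, pups received bis-(dichloroacetyl)-diamine, an inhibitor of retinoic acid (RA) synthesis, by mouth at 100 µg per g of body weight from postnatal day 1, and EGFP+ cells were sorted from pooled testes of at least 5 pups of a litter. The groups were Aal (undifferentiated spermatogonia, 2 libraries), A1 (3 libraries) and A3 (3 libraries). In A1 and A3, differentiation had been started on postnatal day 11 by a subcutaneous dose of RA (10 µl, 10 µg/µl). By the paper's methods, the inhibitor was last given on postnatal day 10, before that dose. The labels give no sampling age. Library totals lay between 18276164 and 27316451 reads.

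Spermatogenesis ends with the assembly of a flagellum. Its core, the axoneme, is a ring of doublet microtubules around a central pair, moved by dynein arms and braced by radial spokes, and it is sheathed by outer dense fibers and a fibrous sheath that exist only in sperm. These parts are built in spermatids, after meiosis, although the axonemal genes also serve motile cilia in other tissues. The Mage and Rhox families are mostly X-linked; Mage proteins are partners of ubiquitin ligases, and Rhox proteins are homeobox factors of reproductive tissues.

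By summed FPKM (read counts scaled to gene length and library depth), markers of undifferentiated spermatogonia (8 of 11 in the table) held 353 to 398 in Aal and 73.6 to 119 in the other libraries. The sum for markers of differentiating spermatogonia (5 of 6) rose from 122 to 131 in Aal to 206 to 224 in A1 and 257 to 276 in A3. Within it, the means of *Sohlh2*, *Lin28b* and *Dmrtb1* rose at each step, *Dmrtb1* from 14.1 FPKM in A1 to 85.5 in A3. *Ccnd2* fell, with means of 40.7, 35.1 and 18.2 FPKM in Aal, A1 and A3. *Dnmt3b* rose from 31.2 in Aal to 75.5 in A1 and was at 67.0 in A3. *Uchl1* lay between 4048 and 7270 FPKM. The sort also left transcripts of other cells. The 12 Sertoli markers in the table, of 24 listed, summed to 40.6 to 51.5 FPKM in Aal, to 56.1 and 58.1 in A1-2 and A1-1, to 378 in A1-3 and to 199 to 370 in A3, with 0 of the 12 at 0. Library A1-3 stood apart within its group, and results are also given without it where it matters.

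Transcripts of late spermatogenic genes were already present, at low levels. Of a list of 136 genes of flagellum and spermatid assembly in these families, 35 were in the table, and 10 of the 35 (28.6%) had an FPKM of at least 1 in all 8 libraries: *Tekt2*, *Dnah2*, *Cfap74*, *Cfap69*, *Cfap43*, *Cfap57*, *Spata6*, *Catsper2*, *Tsga10* and *Tssk1*. Over the whole table the share was 67.0%, and over the 63 members it was 54.0% (34 genes). The number at that level in every library of a group was 18 of 35 in Aal, 15 in A1 and 12 in A3. Over the 5736 genes of the table it was 4295, 4182 and 4164. Aal has 2 libraries and A1 and A3 have 3 each, so the condition is easier to meet in Aal. A further 11 of the 35 stayed under 1 FPKM in all 8 libraries, as did 764 of the 5736. At a minimum of 5 FPKM only *Tekt2* and *Spata6* of the 35 remained, beside 2596 of the 5736. At least 10 reads in every library were held by 27 of 35, beside 4952 of the 5736. The median level of the 35 genes, averaged over libraries, was 1.00 FPKM against 5.93 for the table.

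**Figure D1:**
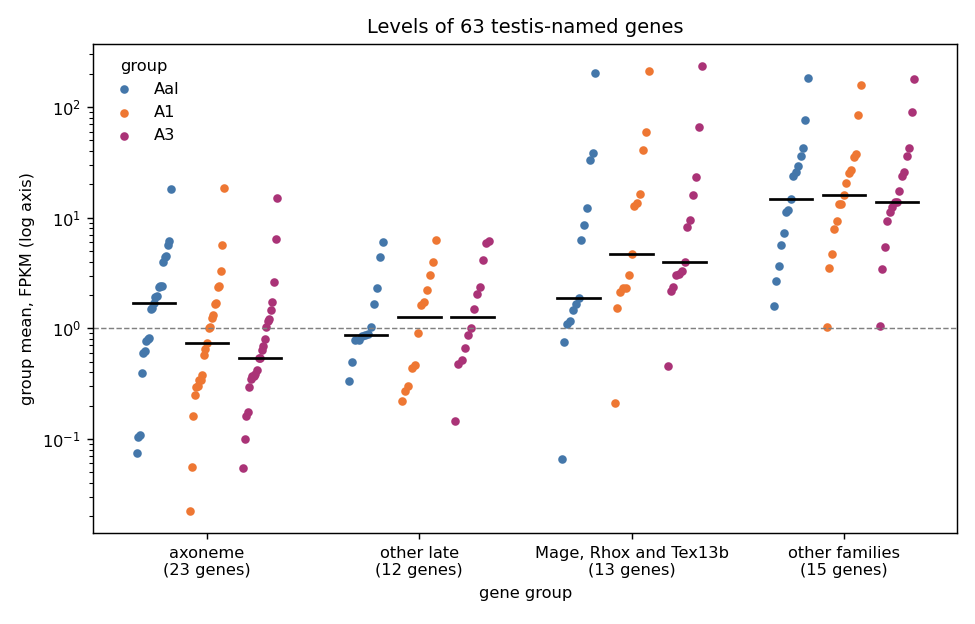
Mean FPKM of each gene (points, log axis) in Aal, A1 and A3 for 4 groups of members, with the median of each group as a black bar and 1 FPKM as a dashed line. The axoneme median lies at 1.69 in Aal, 0.735 in A1 and 0.540 in A3, while the 15 genes of other families have medians of 14.8, 16.0 and 13.9 FPKM.

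*Tekt2* encodes tektin 2, a filament protein inside the doublet microtubules, and had the highest level of the 35. It was at 18.3 and 17.8 FPKM in Aal, at 17.3, 20.6 and 17.7 in A1 and at 15.5, 15.6 and 14.4 in A3. The A3 libraries were below all others, by a log2 fold change of -0.24 ± 0.08 (SE) against Aal (limma adjusted p = 0.04), which did not pass the threshold of 0.01. The gene lies at chr4:125999365-126002932 (mm9, minus strand) and overlaps *Gm12945* on the other strand. *Dnah2*, an inner-arm dynein heavy chain, was at 6.21 and 5.07 FPKM in Aal, at 4.12, 6.53 and 6.46 in A1 and at 5.83, 6.43 and 6.90 in A3. Its groups overlapped in all 3 comparisons, and the gene overlaps *6030455H03Rik* on the other strand.

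*Spata6*, needed for the piece that joins the sperm head to the tail, ranged from 5.07 to 6.78 FPKM over the 8 libraries with overlapping groups throughout. *Catsper2*, a pore subunit of the calcium channel of the sperm tail, ranged from 3.48 to 4.84 FPKM, and *Tsga10*, a protein of the sperm tail sheath, from 1.66 to 2.98 FPKM. Both had overlapping groups in every comparison. *Catsper2* overlaps *Pdia3* and *Gm14000* on the other strand and *Gm14001* on its own, and *Spata6* overlaps *Gm12960* and *Gm12961* on the other strand. Whether counting used strand is not known here, so reads of these neighbours may be included. The spermatid kinases *Tssk1* and *Tssk2* lie next to each other on chromosome 16. *Tssk1* was at 1.43 to 2.37 FPKM; *Tssk2* was at 1.31 and 0.459 in Aal, at 1.45 to 1.81 in A1 and at 1.48 to 1.54 in A3 (adjusted p = 0.084 and 0.078 against Aal). *Catsperg2*, an auxiliary subunit of the same channel, ranged from 0.774 to 1.19 FPKM. *Odf3b* (0.405 to 0.957 FPKM) and the fibrous sheath anchor *Akap3* (0.128 to 0.596 FPKM) stayed below 1 in every library. Components of sheath, channel and kinase machinery were detected at a few FPKM or less, and none of these that were tested passed in either direction. *Odf3b* and *Akap3* were too low to be tested in any of the 3 comparisons, and *Catsperg2* was tested only in A1 against Aal.

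A gene was called in a comparison at a limma adjusted p of at most 0.01 (Benjamini-Hochberg over all genes tested) and an absolute log2 fold change above 1 on the log2(FPKM + 1) scale, which understates changes of low genes. Only genes reaching 1 FPKM in 2 or more libraries of a pair entered the test. From Aal to A1, 2 of the 48 members tested were called, both lower; over all genes tested 9.15% were called, 4.19% higher and 4.97% lower. From A1 to A3, 0 of 44 members were called in limma against 1.5% of all genes (0.479% higher and 1.02% lower), and 16 of the 44 had an unadjusted p under 0.05, beside 34% of all genes. From Aal to A3, 6 of 48 were called, 4 lower and 2 higher, against 17.6% of all genes (7.87% higher and 9.69% lower). On recovered reads without a filter, limma voom called 8, 1 and 19 of the 63 in the 3 comparisons, beside 13.1%, 3.77% and 25.2% of all genes. At an adjusted p of at most 0.01 without the fold requirement, 6 members were higher and 9 lower in A1 than in Aal (13% and 14% of all genes), 0 higher and 2 lower in A3 than in A1 (2.16% and 5.45%), and 9 higher and 13 lower in A3 than in Aal (21.9% and 21.8%). With Aal-2 left out, 1 member was called from Aal to A1, and with A1-1 left out 4 were; without A1-3 the count was 3.

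The 23 axoneme genes (13 Cfap, 6 Dnah, *Tekt2*, *Spag6l*, *Spag16* and *Spag17*) were mostly lower after RA. Their summed level was 62.9 and 62.8 FPKM in Aal, 41.6, 46.7 and 44.7 in A1 and 36.4, 37.6 and 36.0 in A3, so that the groups did not overlap. Without a filter, the median log2 fold change of the 23 genes was -0.40 from Aal to A1, -0.06 from A1 to A3 and -0.60 from Aal to A3, beside 0.04, 0.01 and 0.04 over all genes. At an adjusted p of at most 0.01, 8 of the 14 tested were lower in A1 than in Aal (14% of all genes), 1 of 10 was lower in A3 than in A1 (5.45%) and 11 of 14 were lower in A3 than in Aal (21.8%), and 0 were higher in each of the 3 comparisons. The filter tilts these counts towards lower, since some of the genes counted as lower entered the test through their Aal values alone. These were *Cfap44*, *Cfap52* and *Spag16* in both comparisons with Aal, and also *Cfap70*, *Dnah11* and *Dnah7b* in A3 against Aal. Among them are the calls of *Cfap44* and *Dnah7b* in A3 against Aal and of *Cfap52* in A1 against Aal. When every gene was tested, the counts lower were 8, 1 and 12 of 23, beside 10.8%, 4.15% and 19.1% of all genes. In that fit 0 of the 23 passed as higher in each comparison, and 5 of 23 had a log2 fold change above 0 in A3 against Aal. By ranges, 17 of the 23 lay below Aal in A1 and 18 in A3 with no overlap (27.9% and 33.1% of the table), and 5 of 23 overlapped in A3 against Aal, among them *Dnah2*.

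These counts rest on few Aal libraries. When 1 of them was left out, the filter was applied again to the libraries that remained. *Cfap44*, *Cfap52* and *Spag16* then left the test in both comparisons with Aal. *Cfap70*, *Dnah11* and *Dnah7b*, under 1 FPKM in every A3 library, left it in A3 against Aal. With Aal-1 left out, the number lower was 0 from Aal to A1 and 2 from Aal to A3, and with Aal-2 left out it was 1 and 2. The share of all genes that were lower went down as well, to 5.05% and 11.9% without Aal-1 and to 3.29% and 10.8% without Aal-2; the lone Aal library is then assumed to vary like the A1 or A3 libraries. Leaving out A1-1 or A1-2 gave 5 and 3 from Aal to A1, and leaving out A1-2, A3-2 or A3-3 gave 0 from A1 to A3. Without A1-3 the counts were 8 and 1. The summed axoneme level in A1-3, the A1 library with the high Sertoli sum, was 44.7 FPKM and lay between those of the other A1 libraries. The sum of the 3 endothelial markers in the table, of 6 listed, moved in the same direction as the axoneme genes. It was 7.62 and 8.86 FPKM in Aal, 4.64 to 5.78 in A1 and 2.31 to 2.61 in A3. *Cdh5* held 4.70 and 5.61 of these in Aal, and none of the 3 was at 0. By means, *Tek* was at 1.13 FPKM in Aal, rose to 1.31 in A1 and was at 0.67 in A3. *Kdr* was at 1.96, 0.560 and 0.562 in the same order. The 3 spermatid markers in the table, of 14 listed (*Acr*, *Zpbp* and *Hspa1l*), were also lower after RA, with sums of 7.37 and 7.44 FPKM in Aal, 3.26 to 4.26 in A1 and 4.50 to 5.21 in A3, and none was at 0. The part of either marker list in the result was not tested. In A3 against Aal the Sertoli sum and the stage cannot be told apart, since the Sertoli sums of the groups do not overlap. In bulk samples, fewer cells that hold a transcript and less transcript per cell cannot be told apart.

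**Figure D2:**
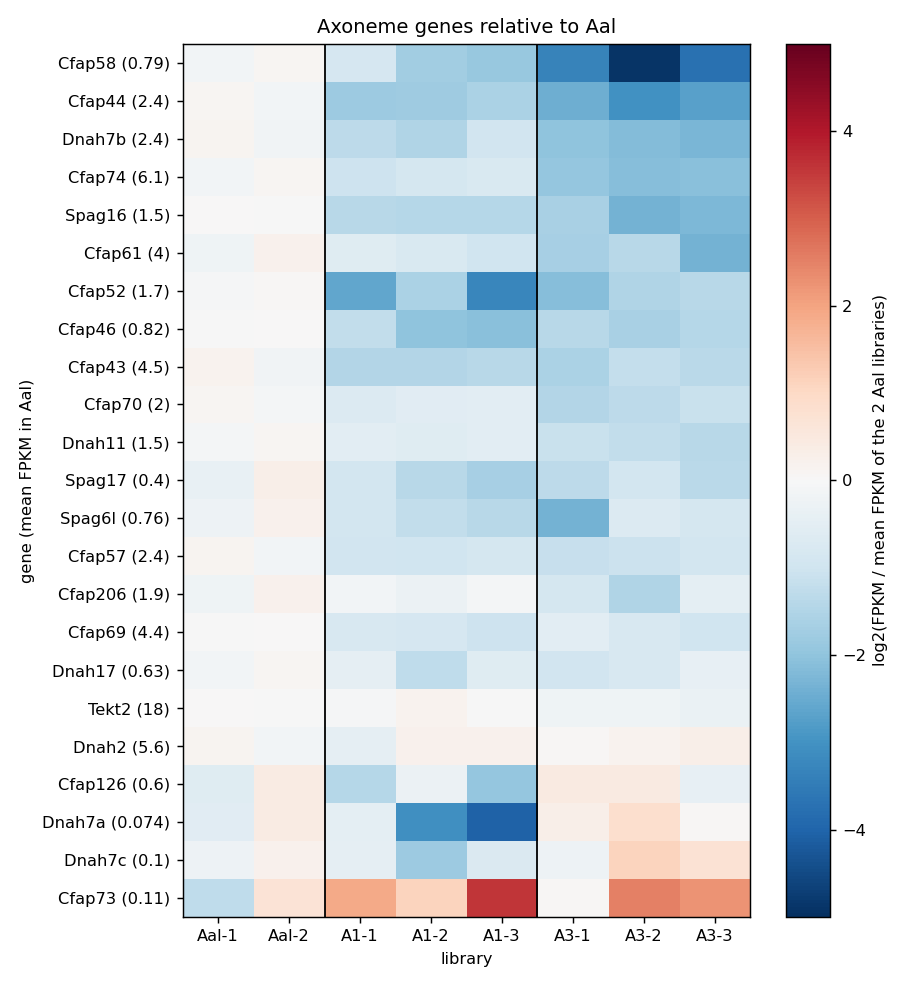
Level of each of 23 axoneme genes in each library as log2 of its FPKM over the mean of the 2 Aal libraries (blue lower, red higher), ordered by the A3 mean, with the Aal mean FPKM after each symbol. Most rows darken from Aal to A1, and *Cfap58*, *Cfap44*, *Dnah7b* and *Cfap74* darken again in A3; *Tekt2* and *Dnah2* stay pale, and the 4 rows at the bottom hold genes under 1 FPKM in Aal.

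Of the 23 axoneme genes, 8 were lower in both steps with no overlap between neighbouring groups (*Cfap74*, *Cfap44*, *Cfap61*, *Dnah7b*, *Cfap58*, *Cfap70*, *Dnah11* and *Spag16*); 7.44% of the table showed that order. *Cfap74*, named as a cilia- and flagella-associated protein of the central pair, was at 5.61 and 6.61 FPKM in Aal, 3.02, 3.32 and 3.60 in A1 and 1.60, 1.39 and 1.43 in A3. The mean in A3 was 4.14-fold below that in Aal (log2 fold change -1.52 ± 0.13, adjusted p = 5.27e-05), and it was the only axoneme gene past 0.01 in A3 against A1 (-0.80 ± 0.11, adjusted p = 0.00381), a step that left the threshold when A1-2, A3-2 or A3-3 was left out (adjusted p 0.0209, 0.0236 and 0.0217). It lies at chr4:154783299-154822053 (mm9, plus strand), with *5830444B04Rik* on the other strand. *Cfap44*, whose loss in men and mice is known to shorten and deform the sperm tail, fell from 2.64 and 2.24 FPKM in Aal to 0.683, 0.706 and 0.815 in A1 and 0.449, 0.299 and 0.373 in A3. Its log2 fold change in A3 against Aal was -1.32 ± 0.13 (adjusted p = 7.74e-05), and the mean was 6.52-fold lower. *Cfap44* spans chr16:44394909-44482541 (mm9, plus strand) and overlaps no other annotated gene.

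*Dnah7b*, an inner-arm dynein heavy chain at chr1:46123583-46430395 (mm9, plus strand), was at 2.65 and 2.11 FPKM in Aal, 0.962, 0.847 and 1.21 in A1 and 0.596, 0.523 and 0.492 in A3. It was called lower in A3 than in Aal (-1.13 ± 0.13, adjusted p = 0.000177). Its neighbours in sequence, *Dnah7a* and *Dnah7c*, share 63.6% and 65.8% of their 75-base windows with other transcripts, so reads between them cannot be assigned with certainty; both reached at most 0.131 and 0.222 FPKM, whereas *Dnah7b* shares 0.879%. *Cfap61*, a radial spoke protein, was at 3.42 and 4.62 FPKM in Aal, 2.67, 2.39 and 2.00 in A1 and 1.28, 1.55 and 0.786 in A3. It was called lower in A3 than in Aal (-1.19 ± 0.19, adjusted p = 0.000851), a call lost without Aal-2 (adjusted p = 0.017). The gene overlaps *Crnkl1* on the other strand at chr2:145760520-146040775 (mm9).

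*Cfap58* was the lowest of the Cfap genes and had the largest ratio of Aal to A3 among the 23, 14.4-fold. Its reads numbered 59 and 72 in Aal, 32, 22 and 13 in A1 and 5, 2 and 5 in A3, and its FPKM fell from 0.730 and 0.857 in Aal to 0.0789, 0.0268 and 0.0592 in A3. It was too low for the filter; in the fit without one its log2 fold change in A3 against Aal was -0.77 (adjusted p = 0.000147), and limma voom gave -3.81 (adjusted p = 6.15e-05). *Spag16*, a central pair protein, was at 1.55 and 1.48 FPKM in Aal, 0.584, 0.569 and 0.559 in A1 and 0.496, 0.293 and 0.316 in A3 (A3 against Aal, -0.88 ± 0.13, adjusted p = 0.00051). *Dnah11*, an outer-arm dynein heavy chain, fell less, from 1.42 and 1.60 FPKM in Aal to 0.701, 0.645 and 0.577 in A3 (-0.61 ± 0.12, adjusted p = 0.00277), and lost its threshold without A3-2 or A3-3 (adjusted p 0.0109 and 0.0106).

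*Cfap43*, *Cfap52* and *Cfap69* were lower in A1 with no further step to A3 that passed. *Cfap43*, a partner of *Cfap44* in the flagellum, was at 5.01 and 3.92 FPKM in Aal, 1.61, 1.62 and 1.73 in A1 and 1.51, 1.97 and 1.74 in A3. It was called lower in A1 than in Aal (-1.04 ± 0.14, adjusted p = 0.00111), a call lost without Aal-1 (log2 fold change -0.89, adjusted p = 0.0163), and the A3 to A1 difference was 0.04 ± 0.12. *Cfap52*, a protein inside the doublet microtubules, was at 1.60 and 1.77 FPKM in Aal, 0.277, 0.566 and 0.174 in A1 and 0.384, 0.590 and 0.648 in A3. It was the other member called lower in A1 (-1.01 ± 0.16, adjusted p = 0.00212), on 7 to 34 reads in the A1 libraries; without A1-1 or A1-3 its log2 fold change was -0.99 or -0.93 and the call was lost on size alone. *Cfap43* and *Cfap52* overlap other annotated genes, and whether counting used strand is not known here. *Cfap69*, known for its role in the sperm flagellum, was at 4.43 FPKM in both Aal libraries and between 2.18 and 3.06 in the other 6. *Spag17*, the lowest Spag gene, was at 0.305 and 0.491 FPKM in Aal and between 0.125 and 0.211 elsewhere, and did not pass (fit without a filter, A1 against Aal, adjusted p = 0.0701).

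The promoters of the members were searched for short motifs, which were chosen after values were seen. The 8 axoneme genes lower in both steps were picked from the same values, so setting them against the other axoneme genes is no test. In the 250 bases before the start of 57 members with a RefSeq promoter (GRCm38.p6), GTTGCCA, a stretch of the X-box bound by RFX factors of ciliated cells, was found on either strand in 4 of 22 axoneme genes, beside 4.19% of 27025 promoters of all genes. The 4 genes were *Cfap74*, *Cfap44*, *Cfap58* and *Dnah7b*, all among the 8 above, with 0 matches in the other 14 axoneme promoters. The motif was also found in 3 members outside the axoneme group, *Akap17b*, *Rhox10* and *Spata31d1a*, or in 7 of 57 members in all (12.3%). CACGTG was found in 1 of 22 axoneme promoters (*Cfap57*; 6.86% of all), TTCCCGC in 1 of 22 (*Cfap206*; 4.38%) and TGACGTC in 1 of 22 (*Spag6l*; 3.16%). A match is a description of the letters and no evidence of binding. The 4 promoters are printed 5′ to 3′ on the strand of the gene, with GTTGCCA or its reverse complement in capitals:
Cfap74, chr4:155408990-155409239 (+): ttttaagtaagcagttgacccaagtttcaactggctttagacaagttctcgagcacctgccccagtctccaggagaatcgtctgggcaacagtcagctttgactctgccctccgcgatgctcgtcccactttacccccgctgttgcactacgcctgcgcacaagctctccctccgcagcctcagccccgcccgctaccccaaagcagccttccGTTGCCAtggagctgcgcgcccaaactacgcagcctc
Cfap44, chr16:44394549-44394798 (+): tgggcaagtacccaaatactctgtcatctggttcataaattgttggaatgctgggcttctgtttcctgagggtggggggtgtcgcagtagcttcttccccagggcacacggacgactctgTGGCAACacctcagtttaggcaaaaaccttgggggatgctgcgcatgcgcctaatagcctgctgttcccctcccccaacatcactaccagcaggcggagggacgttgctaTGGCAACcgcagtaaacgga
Cfap58, chr19:47937462-47937711 (+): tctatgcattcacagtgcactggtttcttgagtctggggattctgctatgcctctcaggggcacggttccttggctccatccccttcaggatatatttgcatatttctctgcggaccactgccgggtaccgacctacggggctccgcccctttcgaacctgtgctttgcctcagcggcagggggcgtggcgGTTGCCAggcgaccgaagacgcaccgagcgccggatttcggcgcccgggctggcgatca
Dnah7b, chr1:46066603-46066852 (+): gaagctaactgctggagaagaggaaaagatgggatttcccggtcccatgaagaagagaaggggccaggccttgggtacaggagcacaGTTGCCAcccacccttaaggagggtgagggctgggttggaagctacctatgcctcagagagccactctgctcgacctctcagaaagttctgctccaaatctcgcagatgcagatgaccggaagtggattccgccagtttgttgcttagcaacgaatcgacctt

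In *Cfap74* the first base of the motif lies 37 bases before the start, in *Cfap58* 59 and in *Dnah7b* 163. *Cfap44* holds 2 copies on the opposite strand, beginning 130 and 20 bases before the start. Among regulators of cilium genes, *Foxj1* was at 0.809 to 1.34 FPKM over the 8 libraries with overlapping groups, and *Rfx2* at 2.83 and 2.58 in Aal, 3.37, 2.90 and 2.24 in A1 and 3.24, 5.64 and 5.73 in A3 (A3 against Aal, 0.63 ± 0.21, adjusted p = 0.0313).

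Other genes of the cilium, outside the named families, were read from a separate list of 51, of which 21 were in the table. At an adjusted p of at most 0.01, 8 of the 19 tested were lower and 1 was higher in A1 than in Aal, 0 lower and 1 higher in A3 than in A1, and 6 lower and 2 higher in A3 than in Aal. The shares of all genes in these comparisons were 14% lower and 13% higher, 5.45% and 2.16%, and 21.8% and 21.9%. *Ccdc65*, of the complex that links neighbouring doublets, was called: it was at 6.00 and 7.28 FPKM in Aal, 1.3, 1.13 and 1.2 in A1 and 1.80, 1.26 and 1.27 in A3 (A1 against Aal, -1.79 ± 0.13, adjusted p = 0.000219). The radial spoke gene *Rsph1*, chosen after its values were seen, was at 13.9 and 17.0 FPKM in Aal, 7.93, 6.48 and 8.37 in A1 and 11.8, 13.4 and 16.3 in A3, lower in A1 (-0.94 ± 0.14, adjusted p = 0.00161; 0.0269 without Aal-2) and higher again in A3 than in A1 (0.78 ± 0.14, adjusted p = 0.00789). That second step was lost without A1-1, A1-2, A3-2 or A3-3 (adjusted p 0.0222 to 0.0372). The median log2 fold change of the 21 genes was -0.47, 0.07 and -0.27 in the 3 comparisons, in the order A1 against Aal, A3 against A1 and A3 against Aal.

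*Spag4* went the opposite way to the axoneme genes and had the largest rise among the members, an order of groups held by 8.02% of the table. It encodes a SUN-domain protein of the spermatid nuclear envelope. It was at 1.13 and 0.424 FPKM in Aal, 1.68, 3.83 and 3.64 in A1 and 5.55, 6.08 and 6.96 in A3, with no overlap between groups in either step. The mean in A3 was 7.97-fold that in Aal (log2 fold change 2.04 ± 0.19, adjusted p = 6.72e-05), and it rested on 41 and 16 reads in Aal against 158 to 264 in A3. The Sertoli sums of A1-1, A1-2 and A1-3 were 58.1, 56.1 and 378 FPKM, and *Spag4* was at 1.68, 3.83 and 3.64 in these libraries. The part of Sertoli transcripts in its level was not tested. The gene lies at chr2:155890911-155896353 (mm9, plus strand) and overlaps no annotated gene. TGACGTC, part of the cAMP response element, was found in 2 of 57 member promoters (3.51%), those of *Spag4* and *Spag6l*, beside 3.16% of promoters of all genes. The motif was chosen after values were seen, and a link to the rise was not tested. The match in the *Spag4* promoter is shown in capitals with the overlapping match on the other strand:
Spag4, chr2:156064963-156065212 (+): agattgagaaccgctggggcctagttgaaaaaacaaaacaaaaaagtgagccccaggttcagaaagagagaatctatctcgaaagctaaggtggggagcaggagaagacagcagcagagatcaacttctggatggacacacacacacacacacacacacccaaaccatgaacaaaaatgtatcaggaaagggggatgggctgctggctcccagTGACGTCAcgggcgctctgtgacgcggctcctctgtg

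Other spermatid genes moved in both directions. *Spata25* was at 0.212 and 0.458 FPKM in Aal, 0.299, 0.327 and 0.280 in A1 and 1.15, 1.14 and 0.759 in A3 (A3 against Aal, 0.59 ± 0.15, adjusted p = 0.00898), on 4 to 20 reads; it missed 0.01 under 8 of 13 alternatives, among them voom (adjusted p 0.021) and without Aal-1 or Aal-2 (0.13 and 0.0368). *Spata31d1a*, of which 21.7% of windows are shared with related copies, was at 0.813 and 0.931 FPKM in Aal, 0.153, 0.368 and 0.141 in A1 and 0.123, 0.126 and 0.185 in A3; too low for the filter, it was lower in the fit without one (A3 against Aal, -0.71, adjusted p = 0.000264). Of 40 spermatid genes listed outside the families, 8 were in the table. *Ldhc*, the lactate dehydrogenase of germ cells, was at 4.43 and 4.77 FPKM in Aal, 1.54, 1.34 and 1.5 in A1 and 3.14, 1.84 and 3.42 in A3, and was called lower in A1 (-1.19 ± 0.12, adjusted p = 0.000433; 0.0109 without Aal-2). *Meig1*, a partner in assembly of the spermatid manchette, was at 5.98 and 4.40 FPKM in Aal, 4.24, 2.28 and 2.56 in A1 and 9.57, 10.8 and 13.0 in A3, and was called higher in A3 than in A1 (1.61 ± 0.19, adjusted p = 0.0021), a call lost without A1-2, A3-2 or A3-3 (0.0107 to 0.0149). Of this list, 6 genes were tested in each comparison; 2 were lower and 0 higher in A1 than in Aal at an adjusted p of at most 0.01, 0 lower and 1 higher in A3 than in A1, and 2 lower and 1 higher in A3 than in Aal, against the same shares of all genes as for the cilium list.

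**Figure D3:**
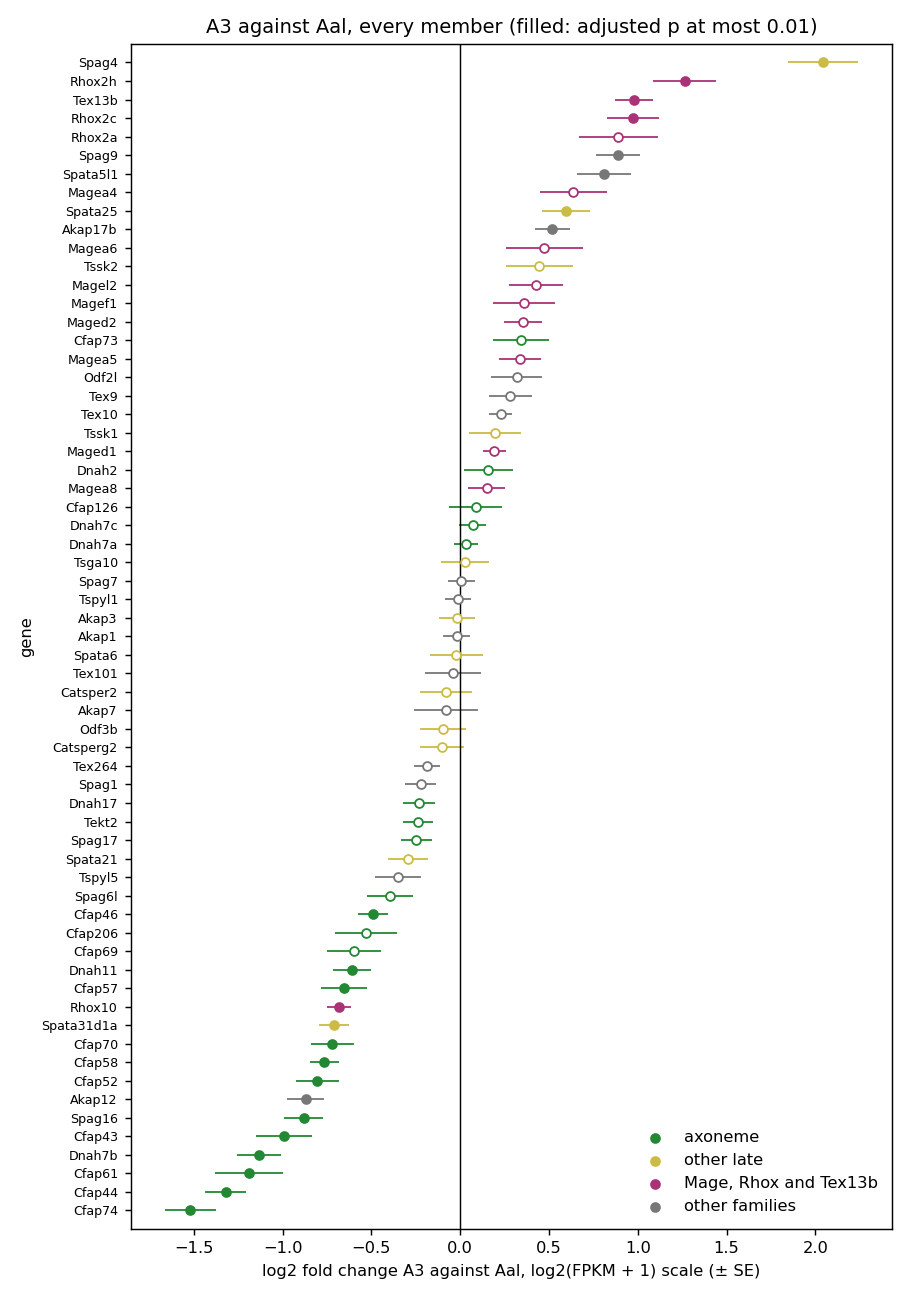
Log2 fold change of A3 against Aal with its standard error for each of the 63 members, fitted without a filter on the log2(FPKM + 1) scale, in ascending order from below and coloured by group; filled points have an adjusted p of at most 0.01. Green axoneme genes fill the lower end down to -1.52 for *Cfap74*, and *Spag4* stands at 2.04 at the upper end.

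The 12 Mage and Rhox genes and *Tex13b* were mostly higher after RA: 10 of these 13 were above Aal in A1 with no overlap and 0 below (33.9% and 27.9% of the table), and 12 were above Aal in A3 and 1 below (37.9% and 33.1%). Of the 13, 11 lie on the X chromosome in mm9, *Magel2* lies on chromosome 7, and *Magef1* has no position here. At an adjusted p of at most 0.01, 4 of 12 tested were higher in A1 than in Aal (*Magea5*, *Magea6*, *Magea8* and *Tex13b*), 1 was lower in A3 than in A1 (*Rhox10*), and 4 were higher and 1 lower in A3 than in Aal. *Tex13b* was put with the Mage and Rhox genes after values were seen, and the other Tex genes were not. By family, 3 of 7 Mage and 0 of 4 Rhox genes tested were higher in A1 than in Aal. In A3 against Aal, 0 of 7 Mage genes passed as higher, and 3 of 4 Rhox genes were higher and 1 lower. Over all genes 13% were higher in A1 than in Aal, 5.45% lower in A3 than in A1, and 21.9% higher and 21.8% lower in A3 than in Aal. Shares of 75-base windows held by other transcripts were 26.0% to 32.8% for *Magea5*, *Magea6*, *Magea8* and *Rhox2h* and 69.7% and 75.1% for *Rhox2a* and *Rhox2c*, so the split of reads among these copies is uncertain.

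Of the 8 Mage genes, 3 peaked in A1 without overlap on either side, an order held by 6.15% of the table. *Magea8* was at 8.98 and 8.18 FPKM in Aal, 13.1, 19.7 and 16.4 in A1 and 9.36, 9.98 and 9.53 in A3. Its log2 fold change was 0.84 ± 0.16 in A1 against Aal (adjusted p = 0.0048) and -0.69 ± 0.13 in A3 against A1 (adjusted p = 0.0121). *Magea5* was at 6.76 and 5.96, then 9.50, 13.7 and 15.2, then 7.77, 8.79 and 8.26 FPKM in the same order of groups (0.89 ± 0.19, adjusted p = 0.00783; -0.55 ± 0.16, adjusted p = 0.0476). *Magea6* was at 2.00 and 1.72, then 4.44, 5.09 and 4.60, then 4.31, 2.27 and 2.60 FPKM (1.00 ± 0.13, adjusted p = 0.00091; -0.52 ± 0.18, adjusted p = 0.0882). The rise of all 3 missed 0.01 without Aal-2 (adjusted p 0.0837 for *Magea5*, 0.0158 for *Magea6* and 0.0604 for *Magea8*), those of *Magea5* and *Magea8* also without Aal-1 (0.045 and 0.0357), and that of *Magea5* also without A1-2 (0.025), without a filter (0.0119) and without a mean-variance trend (0.0139), 7 of 16 alternatives in all. *Magea4*, which shares 0% of windows, did not peak: it was at 2.01 and 1.3 FPKM in Aal, 2.93 to 3.31 in A1 and 2.67 to 3.87 in A3 (A1 against Aal, 0.62 ± 0.16, adjusted p = 0.0159).

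The other Mage genes did not pass 0.01. *Maged1*, a broadly expressed member, had the highest level of all 63 genes, at 204 and 206 FPKM in Aal, 199, 199 and 243 in A1 and 241, 230 and 234 in A3. *Maged2* was at 13.7 and 11 FPKM in Aal, 11.8, 10.3 and 18.7 in A1 and 16.2, 16.0 and 15.8 in A3; its value in A1-3 was 1.70-fold the mean of the other A1 libraries, as the Sertoli sum of that library was also high, and the part of Sertoli transcripts in it was not tested. *Magef1* ranged from 1.31 to 2.86 FPKM. *Magel2*, an imprinted gene, was at 9 and 6 reads in Aal and at 12 to 76 in the other libraries, or 0.0513 to 0.646 FPKM over all 8.

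*Tex13b*, an X-linked germ cell gene, was the most abundant member that was higher at an adjusted p of at most 0.01. It was at 37.7 and 28.8 FPKM in Aal, 63.2, 58.4 and 59.1 in A1 and 64.8, 67.6 and 65.2 in A3, with log2 fold changes of 0.85 ± 0.11 in A1 (adjusted p = 0.000996) and 0.98 ± 0.11 in A3 (adjusted p = 0.000139) against Aal. *Rhox10*, known as a homeobox gene of spermatogonia, was at 38.6 and 38.3 FPKM in Aal, 36.3, 44.3 and 41.2 in A1 and 22.9, 23.7 and 24.1 in A3. It fell in A3 against A1 (-0.76 ± 0.08, adjusted p = 0.00123), with an adjusted p of 0.0105 without A3-2, while A1 and Aal overlapped. It overlaps *Rhox11* on the other strand and *Gm14555* on its own.

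The 3 Rhox2 copies ran against *Rhox10*. *Rhox2h* was at 1.44 and 0.767 FPKM in Aal, 2.70, 1.64 and 2.60 in A1 and 3.59, 3.96 and 4.42 in A3, and was called in A3 against Aal (1.26 ± 0.17, adjusted p = 0.000392; 3.63-fold). *Rhox2c* was at 1.28 and 1.07, then 2.46, 1.79 and 2.11, then 3.59, 3.39 and 2.85 FPKM (0.97 ± 0.14, adjusted p = 0.00053; 0.0108 without Aal-2). *Rhox2a* was at 0.796 and 0.718, then 1.18, 2.07 and 1.32, then 1.59, 1.99 and 3.47 FPKM (0.89 ± 0.22, adjusted p = 0.00882), and it missed 0.01 under 10 of 15 alternatives, among them without a filter (0.0102), with voom (0.0129) and without Aal-1, Aal-2 or A3-2 (0.0528, 0.0695 and 0.0143). All 3 rest on 15 to 87 reads. Their promoters are near copies: over 250 bases, *Rhox2c* differs from *Rhox2a* at 1 base (99.6% identical) and *Rhox2h* at 11 (95.6%). They are printed 5′ to 3′ on the strand of each gene, with bases that differ from *Rhox2a* in capitals:
Rhox2a, chrX:37244742-37244991 (+): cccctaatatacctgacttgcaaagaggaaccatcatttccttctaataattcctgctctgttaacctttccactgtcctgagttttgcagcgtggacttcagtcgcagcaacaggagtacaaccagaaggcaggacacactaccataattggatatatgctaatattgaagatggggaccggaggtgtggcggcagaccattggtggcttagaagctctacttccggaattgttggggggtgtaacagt
Rhox2c, chrX:37453409-37453658 (+): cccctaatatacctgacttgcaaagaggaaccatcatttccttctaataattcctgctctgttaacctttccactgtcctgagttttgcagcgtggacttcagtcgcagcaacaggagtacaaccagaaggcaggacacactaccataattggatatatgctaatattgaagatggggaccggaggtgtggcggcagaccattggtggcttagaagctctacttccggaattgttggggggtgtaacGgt
Rhox2h, chrX:37673278-37673527 (-): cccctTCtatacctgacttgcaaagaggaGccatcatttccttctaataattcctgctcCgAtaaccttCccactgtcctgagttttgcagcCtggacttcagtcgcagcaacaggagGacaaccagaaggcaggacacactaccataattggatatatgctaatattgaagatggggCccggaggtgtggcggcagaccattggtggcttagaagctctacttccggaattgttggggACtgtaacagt

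**Figure D4:**
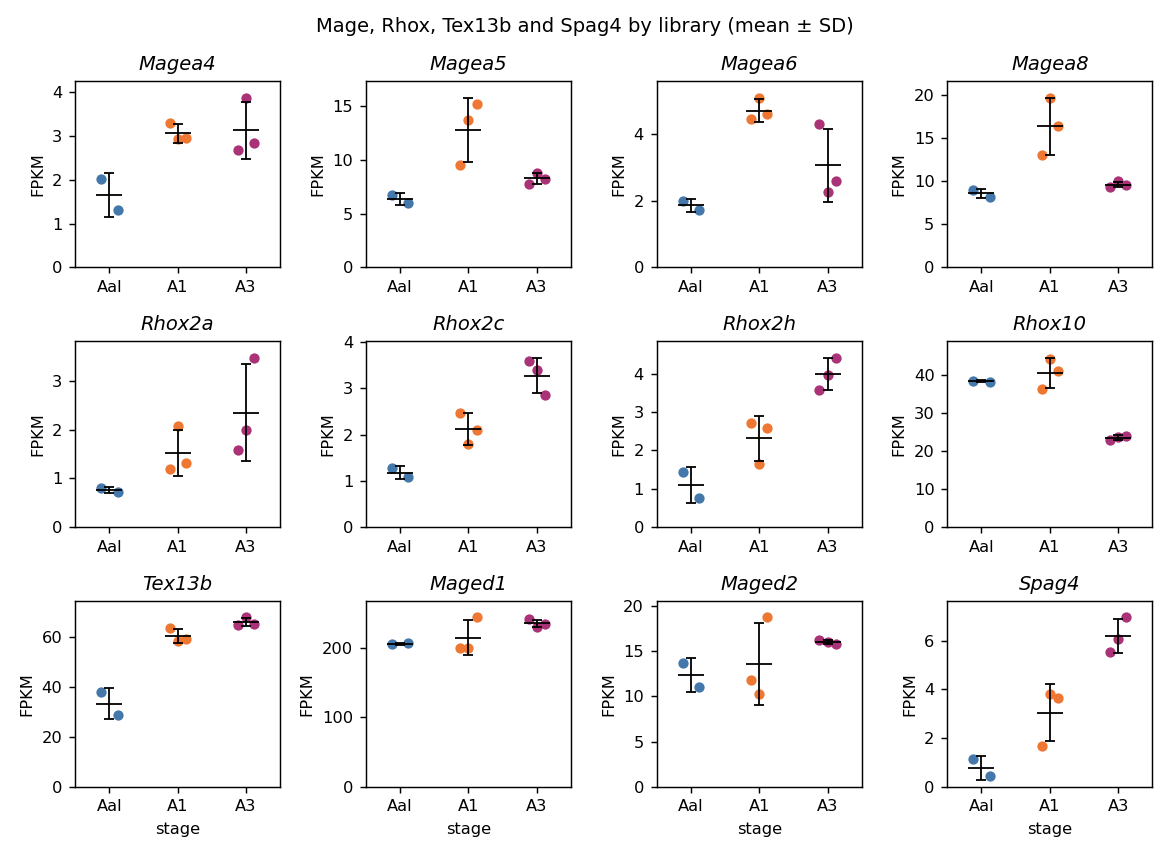
FPKM of 12 genes in each library (points), with the mean and SD of each group in black; axes start at 0. *Magea5*, *Magea6* and *Magea8* are highest in A1, the Rhox2 copies, *Tex13b* and *Spag4* climb from Aal to A3, and *Rhox10* is lowest in A3.

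The remaining 15 members carry testis names but include widely expressed genes, and 14 of the 15 had at least 1 FPKM in all 8 libraries. *Tex101*, a surface glycoprotein of germ cells, was at 180 and 188 FPKM in Aal, 129 to 192 in A1 and 139 to 203 in A3, with overlapping groups. *Tex10*, a nuclear protein of ribosome assembly, ranged from 76.4 to 93.8 FPKM, *Spag7* from 33.5 to 45.0, the mitochondrial kinase anchor *Akap1* from 33.5 to 38.0, and *Tspyl1* from 23.2 to 26.0. *Tex264*, a receptor for turnover of the endoplasmic reticulum, was at 28.1 and 30.7 FPKM in Aal, 26.5 to 27.8 in A1 and 25.3 to 26.1 in A3 (A3 against Aal, -0.19 ± 0.07, adjusted p = 0.0603). *Odf2l* (6.66 to 10.2 FPKM), *Tex9* (10.3 to 15.8) and *Tspyl5* (0.712 to 1.61) did not pass the test in any comparison.

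Of the 15, 4 passed 0.01 in A3 against Aal without the fold to be called, 3 higher and 1 lower, where 21.9% and 21.8% of all genes passed. *Akap12*, an anchor of protein kinases at the cell edge, was lower: 23.5 and 28.8 FPKM in Aal, 14, 14.8 and 19.2 in A1 and 14.4, 13.8 and 13.2 in A3 (-0.87 ± 0.10, adjusted p = 0.000221). *Spag9*, a scaffold of stress kinases, was higher: 6.31 and 5.07 FPKM in Aal, 8.96, 8.44 and 10.7 in A1 and 11.5, 12 and 10.5 in A3 (0.89 ± 0.12, adjusted p = 0.000458). *Akap17b* was at 12.2 and 11.5 FPKM in Aal, 17.8, 21.8 and 22.3 in A1 and 19.1, 17.4 and 15.9 in A3 (0.52 ± 0.10, adjusted p = 0.00261), and *Spata5l1* at 2.98 and 2.38, then 5.35, 5.49 and 3.40, then 5.87, 5.72 and 4.77 FPKM (0.81 ± 0.14, adjusted p = 0.00163). *Spata5l1* missed 0.01 without Aal-2 (0.0218), and *Akap17b* without Aal-1, Aal-2 or A3-2 (0.0164, 0.0281 and 0.0108).

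In place of the absent germ granule families, 8 of 24 listed genes of the piRNA pathway and its RNA-binding partners were in the table, and all 8 had at least 1 FPKM in every library. *Fkbp6*, a co-chaperone of piRNA loading, ranged from 248 to 284 FPKM, and *Dazl*, an RNA-binding protein of germ cells, from 303 to 437. *Nanos2*, an RNA-binding protein of undifferentiated spermatogonia, was the only one called: it was at 7.05 and 9.49 FPKM in Aal, 2.44, 1.68 and 1.44 in A1 and 1.43, 1.24 and 2.15 in A3 (A1 against Aal, -1.70 ± 0.19, adjusted p = 0.00058; 0.013 without Aal-2). At an adjusted p of at most 0.01, 1 was higher and 1 lower in A1 than in Aal, 0 in either direction in A3 than in A1, and 1 higher and 3 lower in A3 than in Aal; the shares of all genes were 13% and 14%, 2.16% and 5.45%, and 21.9% and 21.8%.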

How the data were processed

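RNA was sequenced from 8 libraries of sorted EGFP+ germ cells with a stranded mRNA kit. The authors trimmed reads with cutadapt 1.9, aligned them to mm9 with STAR 2.5.2b and counted them with featureCounts; the annotation, the use of strand and the step to FPKM are not given in the sources used here. The deposited table holds FPKM values. Every value (100% at a tolerance of 0.02) came out as whole reads, so reads per gene and library totals were recovered; the 5736 genes held 34.0% to 34.4% of them. No value is 0, and some library held fewer than 10 reads for 784 of the genes.

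The log2(FPKM + 1) values entered linear models in limma (version 3.58.1, R 4.3.3; moderated variance with a trend), two-sided, per pair of groups on all genes with at least 1 FPKM in 2 libraries, with Benjamini-Hochberg adjustment over all genes tested. The fit was tested on simulated data. Groups come from the sample titles. The study describes 2 or 3 separate cell preparations per group, so p-values measure the spread between preparations. Replicates differed by a chi-square of 5.69 to 21.7 per gene, above sampling noise. Numbers shared by titles did not pair libraries (correlation of deviations for A1 and A3: -0.107, 0.0216 and -0.323).

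Members and lists were chosen with earlier results of these data known, and the gene groups and motifs after values were seen. Named were genes called, all Mage and Rhox genes, the 10 highest, late genes with a mean of at least 5 FPKM, the highest and lowest of each family, and called genes of the outside lists with *Uchl1*. *Spag9*, *Akap17b*, *Spata5l1*, *Spata25*, *Spag16*, *Cfap69*, *Cfap70*, *Dnah11*, *Fkbp6*, *Dazl*, *Acr*, *Zpbp*, *Hspa1l*, *Cdh5*, *Tek*, *Kdr*, *Sohlh2*, *Lin28b*, *Dmrtb1*, *Ccnd2*, *Dnmt3b*, *Foxj1*, *Rfx2* and *Rsph1* were added after their values were seen. Marker lists also gave Leydig (3 of 7 genes in the table, summed FPKM 0.924 to 8.39), peritubular myoid (3 of 6, 1.56 to 6.53), macrophage (3 of 6, 0.459 to 10.5), spermatocyte (6 of 11, 141 to 190) and spermatid (3 of 14, 3.26 to 7.44) genes; 0 of 6 red blood cell genes were in the table. Positions (60 of 63 members) are from GENCODE M1 on mm9, and promoters from RefSeq GRCm38.p6.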

Additional observations from a re-analysis of the deposited data

How the results depend on the processing

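The numbers of members called from Aal to A1, A1 to A3 and Aal to A3 were 2, 0 and 6, and became 6, 2 and 15 with a pseudocount of 0.1, 6, 1 and 16 with voom on recovered reads, 8, 1 and 19 with voom and no filter (added after seeing the data), 15, 2 and 22 without a fold threshold, and 0, 0 and 2 at an FPKM minimum of 5. The shares of all genes called moved too, from 9.15%, 1.5% and 17.6% to 14.5%, 3.31% and 25% with that pseudocount and 15.8%, 4.34% and 25.9% with voom. With the Sertoli mean as a covariate the A3 to Aal count was 0, as it was for all 4687 genes of the table tested, since that mean and the stage did not overlap. Leaving out a replicate gave 1 to 4, 0 to 0 and 4 to 8. Lower axoneme genes numbered 8, 1 and 11, and 1, 0 and 1 at an FPKM minimum of 5; with the covariate A3 against Aal gave 0, with voom A3 against A1 gave 2, and with the replicate block A3 against A1 gave 0; replicate omission gave 0 to 8, 0 to 1 and 2 to 11. The replicate block gave 3, 0 and 7 members called and 6, 0 and 8 lower axoneme genes. Late genes present numbered 10, and 15, 2 and 27 at minima of 0.5 FPKM, 5 FPKM and 10 reads, and 10 to 12 with a replicate left out. The log2 fold changes of *Akap17b* and *Spata5l1* in A3 against Aal reversed to -0.11 and -0.042 with the covariate. Of 728 alternative values for 48 single-gene results, 510 kept direction and call, 80 gained a call, 136 lost a threshold and 2 reversed. The cause of these changes was not tested. Germ granule families gave 0 genes, so their alternatives could not be run. Depth limits the genes under 10 reads, 9 of 63 members, where FPKM rests on few reads.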
